A study of Mus musculus with 12 samples.

Results

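The genes described here encode 8 receptors that guide the traffic of lymphocytes, S1pr1, S1pr5, Ccr7, Gpr183, Cxcr5, Cxcr3, Cx3cr1 and Ccr2. They were taken by symbol from a table of 56941 genes, all 8 were found in it, and all 8 passed the filter on low counts, which left 18657 genes. The table came from bulk RNA sequencing of CD8+ T cells taken from Panc02 tumours, a pancreatic cancer model grown from a murine line, and the mice were wild type C57BL/6J. Cells were sorted as DAPI-negative (viable), CD45.2+ and CD8+, and as positive or negative for asGM1 (asialo-GM1), a glycolipid of the plasma membrane. Treatment was an antibody against PD-1, an inhibitory receptor of T cells, or an isotype control antibody. This gave 4 groups of 3 libraries, namely anti-PD-1 asGM1-positive, anti-PD-1 asGM1-negative, isotype asGM1-positive and isotype asGM1-negative. The labelled sort held no gate on CD3 or the T cell receptor, and neither dose nor time of treatment is known from the labels. The labels do not say whether the replicates of a group are separate mice, so the p-values reflect library-to-library spread alone, and some of that may be technical.

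T cells leave tissues and lymph nodes along a gradient of sphingosine-1-phosphate, which S1PR1 senses, and CCR7 guides their entry into lymph nodes. KLF2 is a known activator of S1pr1 transcription, and CD69 binds S1PR1 and removes it from the cell surface. Other receptors of the set draw T cells to oxysterols (GPR183), to B cell follicles (CXCR5) or to inflamed tissue (CXCR3, CX3CR1 and CCR2). Several are also made by other leukocytes, among them CX3CR1 and CCR2 by monocytes and macrophages, CCR7 by mature dendritic cells and CXCR5 by B cells.

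Library totals ran from 58.1 to 73.2 M counts (M, mega), and values are given as CPM, counts scaled to a total of 1 M after TMM scaling. A gene with no count in a library could still have had a true mean of up to 3 counts (95% limit for counting error only), which is 0.0406 to 0.0524 CPM here. Cd8a averaged 1720 CPM in anti-PD-1 asGM1-positive, 1842 CPM in anti-PD-1 asGM1-negative, 2402 CPM in isotype asGM1-positive and 2111 CPM in isotype asGM1-negative libraries, and Cd3e at least 1122 CPM in every group. Of the 9 B cell markers listed, Ms4a1 was at 0 counts in all 12 libraries, while Ighm averaged 123 CPM and Cd79b 3.65 CPM over them.

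Promoter sequence is shown for 4 receptors that passed as higher under anti-PD-1 when both populations were averaged, as reported with the treatment comparison. Within single populations Cx3cr1 passed only in asGM1-positive cells, Gpr183 and Ccr2 only in asGM1-negative cells, and Cxcr3 in neither. The stretches are RefSeq's, on build GRCm38.p6, 250 bases before to 50 after the annotated start, written 5′ to 3′ on the gene's strand, and 5 of the 8 receptors had an entry. They lie at chr9:120068247-120068546 on the minus strand for Cx3cr1, chrX:101734098-101734397 on the minus strand for Cxcr3, chr9:124101933-124102232 on the plus strand for Ccr2 and chr14:121965144-121965443 on the minus strand for Gpr183. Capitals mark matches, on either strand, to the CACCC box bound by Krüppel-like factors (CACCC or GGGTG), to the E-box bound by ZEB proteins (CAGGTG or CACCTG) and to the TCF/LEF box (CTTTGA or TCAAAG). None of the 4 stretches held matches to more than 1 of these motifs.
Cx3cr1: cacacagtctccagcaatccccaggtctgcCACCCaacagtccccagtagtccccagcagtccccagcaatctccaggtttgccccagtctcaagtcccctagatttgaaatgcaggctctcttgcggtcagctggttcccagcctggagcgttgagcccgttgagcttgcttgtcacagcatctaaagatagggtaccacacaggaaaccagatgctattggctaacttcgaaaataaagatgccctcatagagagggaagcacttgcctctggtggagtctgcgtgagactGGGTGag
Cxcr3: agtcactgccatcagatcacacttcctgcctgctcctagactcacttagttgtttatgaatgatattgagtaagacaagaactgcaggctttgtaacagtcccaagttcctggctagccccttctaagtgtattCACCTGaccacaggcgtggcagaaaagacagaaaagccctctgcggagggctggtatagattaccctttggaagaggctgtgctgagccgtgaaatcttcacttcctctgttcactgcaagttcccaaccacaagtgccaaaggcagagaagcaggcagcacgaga
Ccr2: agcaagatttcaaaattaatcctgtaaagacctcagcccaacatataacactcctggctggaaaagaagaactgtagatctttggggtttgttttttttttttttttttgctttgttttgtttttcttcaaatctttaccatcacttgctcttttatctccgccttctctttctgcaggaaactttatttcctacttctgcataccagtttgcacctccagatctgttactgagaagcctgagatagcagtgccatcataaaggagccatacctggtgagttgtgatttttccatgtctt
Gpr183: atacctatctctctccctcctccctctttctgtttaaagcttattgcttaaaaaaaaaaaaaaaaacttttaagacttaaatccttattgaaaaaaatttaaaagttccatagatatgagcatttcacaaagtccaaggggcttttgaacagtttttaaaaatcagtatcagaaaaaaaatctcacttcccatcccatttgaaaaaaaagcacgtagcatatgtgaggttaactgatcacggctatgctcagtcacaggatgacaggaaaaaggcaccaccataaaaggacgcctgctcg
Cx3cr1 had 2 matches to the CACCC box, which 57.5% of 32851 promoters of this length held. Cxcr3 had 1 match to the E-box, which 20.2% held. Neither Ccr2 nor Gpr183 held a match to these letters in this window, and the TCF/LEF box, which 16.0% held, was in none of the 4. S1pr5 had an entry with 2 matches to the CACCC box, and its sequence is not shown. S1pr1, Ccr7 and Cxcr5 are named without a sequence.

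asGM1-positive cells had less S1pr1 and Ccr7 transcript than asGM1-negative cells under isotype, and less S1pr1 under anti-PD-1. Under isotype 2 of the 8 receptors passed, both lower in asGM1-positive cells (edgeR quasi-likelihood F test, Benjamini-Hochberg adjusted p under 0.05), against 0.938% of all genes tested that were lower. Under anti-PD-1, 1 of the 8 passed, also lower, against 0.654% of genes. Averaged over treatments 2 of 8 passed, both lower, against 2.04% of genes. The receptors' median log2 fold change was -1.40 under isotype and -0.43 under anti-PD-1, where the median of all genes was -0.00084 and -0.01. Libraries of 1 treatment with the same replicate number deviated together, so the number pairs the populations, and a fit with the replicate as a block was made beside the unblocked one. With the block 4 of 8 receptors were lower under isotype (2.12% of genes were lower), 4 of 8 under anti-PD-1 (2.13%) and 5 of 8 on average (4.27%).

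**Figure D1:**
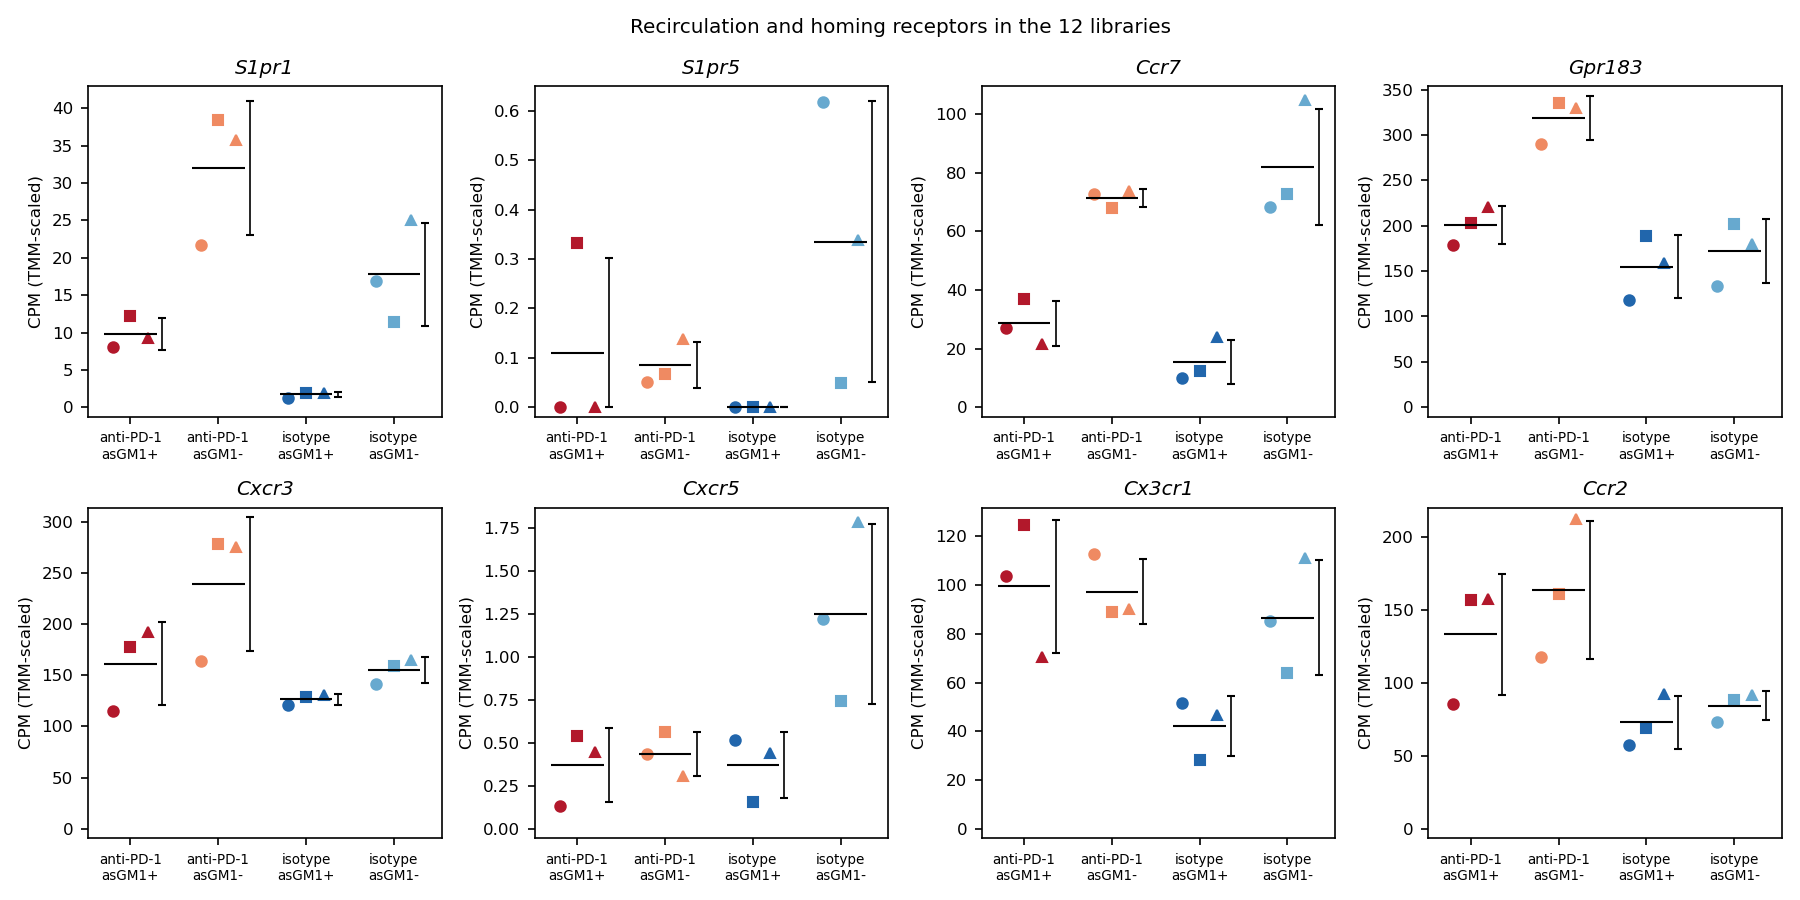
Level of each receptor in CPM (linear axis) in the 3 libraries of each group, with circles, squares and triangles for replicates 1, 2 and 3, a line for the group mean and a bar for 1 SD, cut at 0. S1pr1 and Ccr7 stood lower in the asGM1-positive group of each treatment, and S1pr1 in all 3 anti-PD-1 asGM1-positive libraries stood above all 3 isotype asGM1-positive libraries.

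S1pr1, the receptor for exit into blood and lymph, measured 8.06, 12.2 and 9.24 CPM in the anti-PD-1 asGM1-positive libraries, against 21.7, 38.5 and 35.8 CPM in the anti-PD-1 asGM1-negative libraries. Under isotype it measured 1.29, 1.92 and 1.94 CPM in asGM1-positive cells, against 16.9, 11.4 and 25.1 CPM in asGM1-negative cells. The populations did not overlap under either treatment, and the isotype asGM1-positive libraries were the lowest of all 12. The log2 fold change between populations was -3.37 ± 0.33 (SE) under isotype, or 10.3-fold lower (adjusted p = 0.00112). It was -1.70 ± 0.30 under anti-PD-1, or 3.26-fold lower (adjusted p = 0.0205, and 0.00479 with the block). The anti-PD-1 result did not pass when any of 4 single libraries was left out (asGM1-negative replicate 2 or 3, asGM1-positive replicate 1 or 3), with an adjusted p of 0.0762 to 0.0941, nor without replicate 2 of both anti-PD-1 groups (0.146). In bulk RNA, fewer cells that make a transcript and less of it per cell cannot be told apart.

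Under anti-PD-1, S1pr1 rose in asGM1-positive cells. There it averaged 9.83 ± 2.13 CPM under anti-PD-1 and 1.71 ± 0.368 CPM under isotype (SD, n = 3 each), a log2 fold change of 2.51 ± 0.32 (adjusted p = 0.000759), and it passed in all 22 alternative settings. In asGM1-negative cells it averaged 32.0 ± 9.0 CPM under anti-PD-1 and 17.8 ± 6.87 CPM under isotype, with overlapping libraries and a log2 fold change of 0.85 ± 0.30 (adjusted p = 0.106). The difference between these responses, 1.67 ± 0.43 on the log2 scale, did not pass (adjusted p = 0.426 by edgeR, 0.0768 with the block and 0.0295 by DESeq2). Within replicate pairs, asGM1-positive cells held 25.8 to 37.0% of the S1pr1 level of asGM1-negative cells under anti-PD-1 and 7.65 to 16.8% under isotype.

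S1pr5, a receptor that guides exit of effector T cells and NK cells, was close to the detection limit. It had 0, 19 and 0 counts in anti-PD-1 asGM1-positive libraries, against 3, 4 and 9 counts in anti-PD-1 asGM1-negative libraries. Isotype asGM1-positive libraries had 0 counts in all 3, against 39, 3 and 25 counts in isotype asGM1-negative libraries. With the 3-count floor for the isotype asGM1-positive sum of 0, against 67 observed asGM1-negative counts, S1pr5 was 22.1-fold lower in asGM1-positive cells. Without asGM1-negative replicate 1, which held 39 of the 67 counts, it was 13.6-fold lower. These folds leave out counting error in the asGM1-negative sum and the spread between libraries, of which asGM1-negative replicate 2 held only 3 counts. S1pr5 did not pass in edgeR (adjusted p = 0.221), while DESeq2 gave an adjusted p of 0.0412. All 19 counts of the anti-PD-1 asGM1-positive group came from replicate 2.

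Ccr7, the receptor for entry into lymph nodes, measured 27.1, 37.0 and 21.5 CPM in the anti-PD-1 asGM1-positive libraries, against 72.6, 67.8 and 73.7 CPM in the anti-PD-1 asGM1-negative libraries. Under isotype it measured 9.89, 12.3 and 23.9 CPM in asGM1-positive cells, against 68.3, 72.8 and 105 CPM in asGM1-negative cells. Every asGM1-positive library was below every asGM1-negative library, across treatments. The difference was -2.42 ± 0.31 on the log2 scale under isotype, 5.33-fold lower (adjusted p = 0.00384). Under anti-PD-1 it was -1.32 ± 0.30 and missed the threshold (adjusted p = 0.0510), and passed with the block (-1.36 ± 0.18, adjusted p = 0.00503). Anti-PD-1 against isotype gave 0.89 ± 0.30 in asGM1-positive cells (adjusted p = 0.104) and -0.20 ± 0.29 in asGM1-negative cells (adjusted p = 0.755). The value in asGM1-positive cells passed without isotype asGM1-positive replicate 3, the highest of its group (1.36, adjusted p = 0.00776), and by DESeq2 (adjusted p = 0.0257).

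Gpr183, which senses oxysterols and positions T cells within lymphoid tissue, measured 179, 203 and 220 CPM in the anti-PD-1 asGM1-positive libraries, against 291, 335 and 330 CPM in the anti-PD-1 asGM1-negative libraries. Under isotype it measured 118, 188 and 159 CPM in asGM1-positive cells, against 134, 202 and 180 CPM in asGM1-negative cells. The populations overlapped under isotype and did not under anti-PD-1. The population difference was -0.66 ± 0.18 under anti-PD-1 (adjusted p = 0.100), which passed with the block (-0.67 ± 0.06, adjusted p = 0.00138), and -0.15 ± 0.18 under isotype (adjusted p = 0.821, and 0.201 with the block). In every one of 6 pairs the asGM1-positive library was the lower, at 60.7 to 66.8% of its partner under anti-PD-1 and 88.3 to 93.1% under isotype. Gpr183 rose under anti-PD-1 in asGM1-negative cells, by 0.89 ± 0.18 on the log2 scale (1.85-fold, adjusted p = 0.0101), with an adjusted p of 0.0579 without replicate 2 of both anti-PD-1 groups. In asGM1-positive cells the value was 0.37 ± 0.18 (adjusted p = 0.255). The difference of the responses was -0.52 ± 0.25 (adjusted p = 0.731, and 0.0580 with the block). In the annotation used here, Gpr183 lies within the gene Ubac2 on the opposite strand, and use of strand in counting is not stated. Ubac2 averaged 96.1, 109, 105 and 110 CPM in the anti-PD-1 asGM1-positive, anti-PD-1 asGM1-negative, isotype asGM1-positive and isotype asGM1-negative groups and passed in no comparison.

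Cxcr5, the receptor for B cell follicles, was low in every library. It measured 0.129, 0.541 and 0.446 CPM in anti-PD-1 asGM1-positive libraries, against 0.437, 0.562 and 0.306 CPM in anti-PD-1 asGM1-negative libraries. Isotype asGM1-positive libraries had 0.516, 0.153 and 0.443 CPM, against 1.22, 0.742 and 1.79 CPM in isotype asGM1-negative libraries. The isotype asGM1-negative libraries were the 3 highest of the 12, but Cxcr5 passed in no comparison (for isotype populations -1.76 ± 0.60 on the log2 scale, adjusted p = 0.235). In asGM1-negative cells every anti-PD-1 library was below every isotype library, with means of 0.435 CPM under anti-PD-1 and 1.25 CPM under isotype, a log2 fold change of -1.52 ± 0.60 that did not pass (adjusted p = 0.150).

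Cxcr3, which binds the interferon-induced chemokines CXCL9, CXCL10 and CXCL11, measured 115, 178 and 192 CPM in the anti-PD-1 asGM1-positive libraries, against 164, 279 and 275 CPM in the anti-PD-1 asGM1-negative libraries. Under isotype it measured 121, 128 and 131 CPM in asGM1-positive cells, against 141, 159 and 165 CPM in asGM1-negative cells. Replicate 1 was the lowest in both anti-PD-1 groups, and asGM1-positive cells held 63.6 to 70.2% of their partner's level under anti-PD-1 and 79.2 to 85.4% under isotype. The population difference passed only with the block, at -0.56 ± 0.06 under anti-PD-1 (adjusted p = 0.00221, and 0.283 unblocked) and -0.29 ± 0.06 under isotype (adjusted p = 0.0392, and 0.640 unblocked). Treatment gave 0.35 ± 0.21 in asGM1-positive cells (adjusted p = 0.378) and 0.63 ± 0.21 in asGM1-negative cells (adjusted p = 0.0888).

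Cx3cr1, the fractalkine receptor that marks effector and patrolling cells, measured 104, 124 and 70.3 CPM in the anti-PD-1 asGM1-positive libraries, against 113, 88.9 and 90.1 CPM in the anti-PD-1 asGM1-negative libraries. Under isotype it measured 51.7, 28.2 and 46.6 CPM in asGM1-positive cells, against 85.1, 63.7 and 111 CPM in asGM1-negative cells. The populations overlapped under anti-PD-1 and did not under isotype. Under isotype the difference was -1.04 ± 0.27 on the log2 scale (adjusted p = 0.0978), which passed with the block (-1.05 ± 0.16, adjusted p = 0.0136). Under anti-PD-1 it was 0.03 ± 0.26 (adjusted p = 0.990). Within asGM1-positive cells Cx3cr1 rose under anti-PD-1 by 1.24 ± 0.27 (2.36-fold, adjusted p = 0.0169), but not past the threshold without isotype asGM1-positive replicate 2 (0.0515), anti-PD-1 asGM1-positive replicate 1 (0.0548), anti-PD-1 asGM1-positive replicate 2 (0.0720) or both anti-PD-1 libraries of replicate 2 (0.0980). Within asGM1-negative cells the value was 0.17 ± 0.26 (adjusted p = 0.772), and the difference of the responses, 1.07 ± 0.37, did not pass (adjusted p = 0.545).

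Ccr2, the receptor for the monocyte chemoattractants CCL2, CCL7 and CCL12, measured 85.1, 157 and 157 CPM in the anti-PD-1 asGM1-positive libraries, against 118, 161 and 212 CPM in the anti-PD-1 asGM1-negative libraries. Under isotype it measured 57.2, 68.8 and 92.5 CPM in asGM1-positive cells, against 73.1, 88.1 and 91.6 CPM in asGM1-negative cells. The populations overlapped under both treatments, with no population difference past the threshold (-0.30 ± 0.26 under anti-PD-1, adjusted p = 0.805, and -0.21 ± 0.26 under isotype, adjusted p = 0.834). Ccr2 rose under anti-PD-1 in asGM1-negative cells by 0.96 ± 0.27 (1.94-fold, adjusted p = 0.0447), a call that did not pass in 9 of the 13 settings that left libraries out (highest adjusted p 0.180). The value in asGM1-positive cells was close, 0.87 ± 0.26 (adjusted p = 0.0754).

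**Figure D2:**
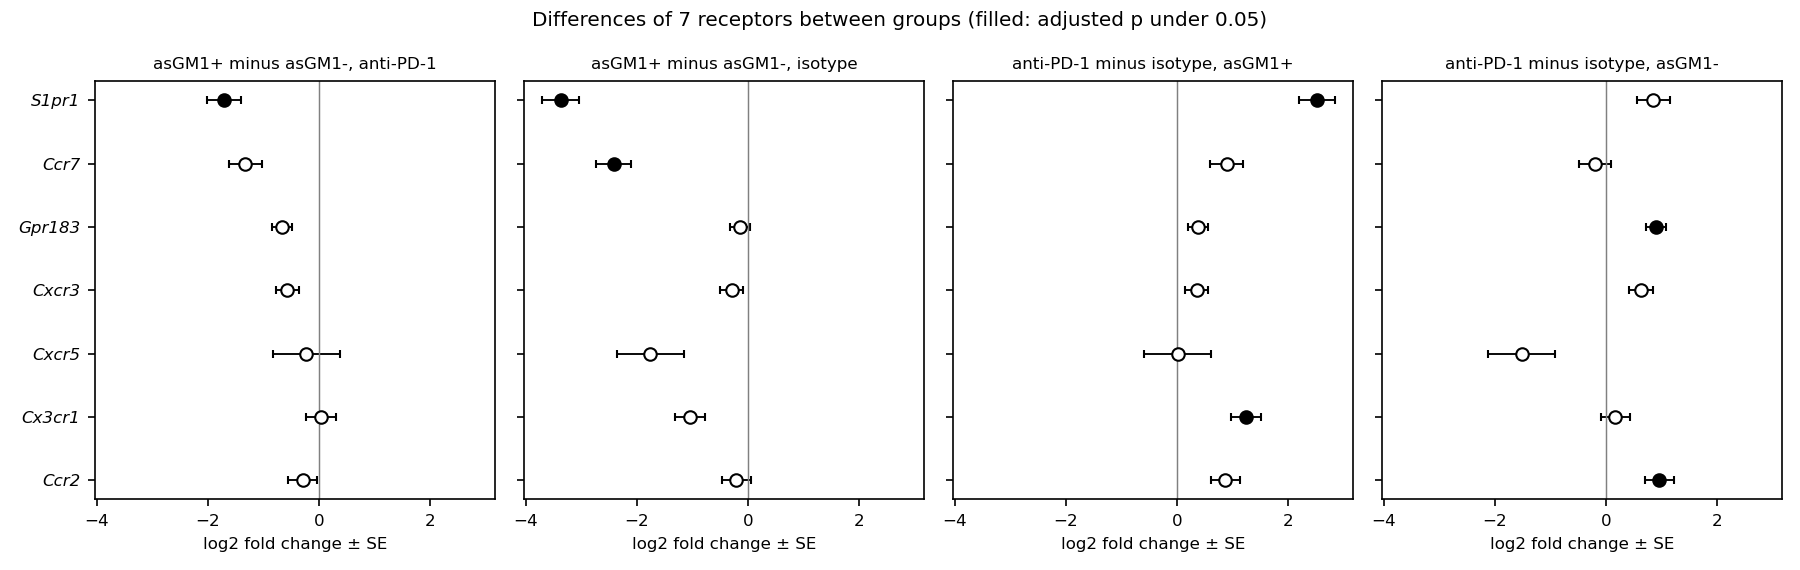
Log2 fold change with its SE for 7 receptors in the 4 comparisons of groups, with filled points for an adjusted p under 0.05. S1pr1 and Ccr7 lay furthest left between populations under isotype, at -3.37 and -2.42, and S1pr1 furthest right for treatment in asGM1-positive cells, at 2.51 (S1pr5 is left out because of its counts of 0).

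Across both populations, 5 of the 8 receptors rose under anti-PD-1 when the populations were averaged, where 9.22% of genes rose. These were S1pr1 (1.68 ± 0.22 on the log2 scale, adjusted p = 0.000355), Ccr2 (0.91 ± 0.19, adjusted p = 0.00583), Cx3cr1 (0.70 ± 0.19, adjusted p = 0.0222), Gpr183 (0.63 ± 0.13, adjusted p = 0.00492) and Cxcr3 (0.49 ± 0.15, adjusted p = 0.0389). Cxcr3 did not pass in 11 of the 13 settings that left libraries out, and Cx3cr1 did not in 5. The average took the asGM1-positive and asGM1-negative libraries of a replicate number as independent. Those libraries deviated together within a treatment, so the adjusted p-values of the average may be too small. Within asGM1-positive cells 2 of 8 passed, S1pr1 and Cx3cr1, where 3.78% of genes rose, and within asGM1-negative cells 2 of 8 passed, Gpr183 and Ccr2, where 4.21% rose. None of the 8 passed as lower in either population, where 3.04% of genes fell in asGM1-positive and 4.55% in asGM1-negative cells. The receptors' median log2 fold change was 0.88 in asGM1-positive cells and 0.40 in asGM1-negative cells, where all genes had -0.01 in each. With the 3-count floor for the group at 0 counts, S1pr5 was -4.47 between populations under isotype and 2.66 for treatment in asGM1-positive cells. It stayed the most extreme receptor in both, so the medians of -1.40 and 0.88 could not change.

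The difference between populations in their response to anti-PD-1 passed for none of 18657 genes in edgeR, so for none of the receptors (0%). At an unadjusted p under 0.05 it held 4 of the 8 receptors (S1pr1, Cx3cr1, Ccr7 and S1pr5) and 7.19% of genes. For S1pr5 all 19 counts of the anti-PD-1 asGM1-positive group came from replicate 2, and the isotype asGM1-positive group had 0 counts. DESeq2 called 136 genes, S1pr1 among them, the fit with the block 13 and limma voom none. Because the contrasts share groups, the treatment response and the population difference of 1 gene are not separate evidence.

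**Figure D3:**
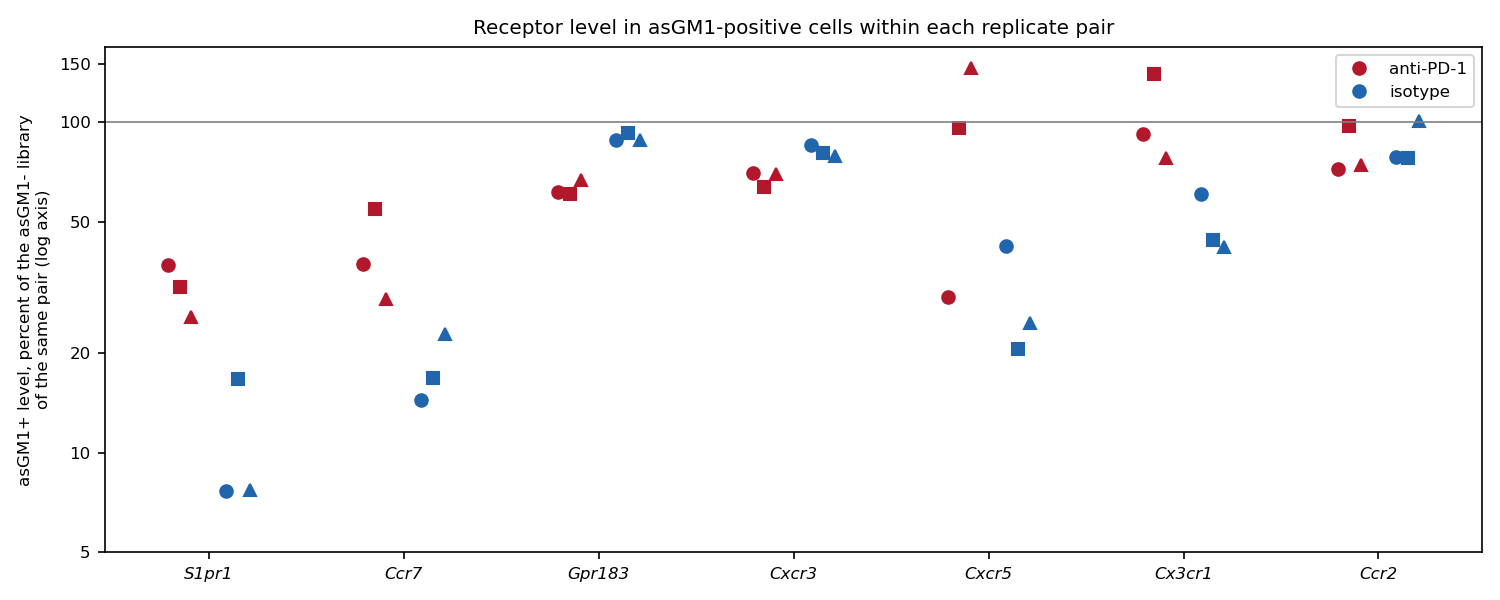
Level of each receptor except S1pr5 in asGM1-positive cells as a percent of the asGM1-negative library of the same treatment and replicate number (log axis). There were 3 pairs per treatment, with replicate 1, 2 and 3 as circle, square and triangle. S1pr1 lay at 25.8 to 37.0% under anti-PD-1 and 7.65 to 16.8% under isotype, while Ccr2 lay at 72.3 to 97.4% under anti-PD-1 and 78.1 to 101% under isotype.

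Markers of other cells moved with these groups. Of 14 plasmacytoid dendritic cell markers, 8 were lower in asGM1-positive cells under anti-PD-1 and 10 under isotype, where the shares of all genes that were lower were 0.654% under anti-PD-1 and 0.938% under isotype. Siglech averaged 0.187 CPM in asGM1-positive and 30.5 CPM in asGM1-negative cells under anti-PD-1, against 0.0786 CPM in asGM1-positive and 58.6 CPM in asGM1-negative cells under isotype. The list summed to 550 to 774 CPM in asGM1-positive and 611 to 698 CPM in asGM1-negative cells under anti-PD-1, and to 574 to 635 CPM in asGM1-positive and 663 to 856 CPM in asGM1-negative cells under isotype. Irf8, which activated T cells also express, made up 85.7% of that sum. Without Irf8 it was 29.5 to 35.6 CPM in asGM1-positive and 103 to 128 CPM in asGM1-negative cells under anti-PD-1, and 27.1 to 32.5 CPM in asGM1-positive and 168 to 260 CPM in asGM1-negative cells under isotype.

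Of 8 markers of CD4 and regulatory T cells, 1 was lower in asGM1-positive cells under anti-PD-1 and 2 under isotype (with the block, 1 under anti-PD-1 and 4 under isotype). Foxp3 averaged 5.63 CPM in asGM1-positive and 39.4 CPM in asGM1-negative cells under anti-PD-1, and 3.22 CPM in asGM1-positive and 29.0 CPM in asGM1-negative cells under isotype. The list summed to 1289 to 1486 CPM in asGM1-positive and 1616 to 1659 CPM in asGM1-negative cells under anti-PD-1, and to 597 to 871 CPM in asGM1-positive and 816 to 1102 CPM in asGM1-negative cells under isotype. Ctla4 made up 58.5% of that sum. Without Ctla4 it was 424 to 494 CPM in asGM1-positive and 505 to 631 CPM in asGM1-negative cells under anti-PD-1. Under isotype it was 328 to 376 CPM in asGM1-positive and 516 to 669 CPM in asGM1-negative cells. Of 12 markers of conventional and mature dendritic cells, 3 were lower in asGM1-positive cells under anti-PD-1 and 2 under isotype (with the block, 2 lower under anti-PD-1, and 3 lower and 1 higher under isotype). Their sum was 74.9 to 161 CPM in asGM1-positive and 79.5 to 190 CPM in asGM1-negative cells under anti-PD-1, and 136 to 156 CPM in asGM1-positive and 110 to 127 CPM in asGM1-negative cells under isotype. H2-Ab1 made up 89.5% of it, and without H2-Ab1 the sum was 4.33 to 7.36 CPM in asGM1-positive and 14.2 to 26.2 CPM in asGM1-negative cells under anti-PD-1, and 6.27 to 8.05 CPM in asGM1-positive and 19.0 to 23.8 CPM in asGM1-negative cells under isotype. Fscn1, of mature dendritic cells, averaged at most 0.939 CPM in any group. Of 5 B cell markers tested, 0 passed under anti-PD-1 and 1 was lower under isotype, and of 6 NK cell and 4 neutrophil markers none passed between populations under either treatment (at an unadjusted p under 0.05, 2 NK cell markers under anti-PD-1 and 4 under isotype, and 1 neutrophil marker under each). Of all 18657 genes, 2127 had an unadjusted p under 0.05 between populations under anti-PD-1 and 2338 under isotype. With the block 2 B cell markers were lower and 1 NK cell marker was higher in asGM1-positive cells under anti-PD-1, and 3 NK cell markers were higher under isotype. The NK cell list summed to 121 to 250 CPM in asGM1-positive and 139 to 224 CPM in asGM1-negative cells under anti-PD-1. Under isotype it summed to 361 to 488 CPM in asGM1-positive and 188 to 279 CPM in asGM1-negative cells. Klre1 made up 47.1% of it. Without Klre1 the sum was 38.4 to 77.1 CPM in asGM1-positive and 44.0 to 83.7 CPM in asGM1-negative cells under anti-PD-1. Under isotype it was 253 to 354 CPM in asGM1-positive and 83.9 to 159 CPM in asGM1-negative cells. The B cell list summed to 18.2 to 101 CPM in asGM1-positive and 62.0 to 122 CPM in asGM1-negative cells under anti-PD-1. Under isotype it summed to 137 to 175 CPM in asGM1-positive and 192 to 215 CPM in asGM1-negative cells. Ighm made up 96.2% of it. Without Ighm the sum was 1.32 to 2.86 CPM in asGM1-positive and 3.34 to 6.82 CPM in asGM1-negative cells under anti-PD-1. Under isotype it was 2.99 to 4.71 CPM in asGM1-positive and 7.94 to 9.27 CPM in asGM1-negative cells.

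Macrophage markers moved the other way. Of 17, 7 were higher in asGM1-positive cells under anti-PD-1, where 0.949% of all genes were higher, and 9 under isotype, where 0.364% were. C1qa averaged 9.13 CPM in asGM1-positive and 2.79 CPM in asGM1-negative cells under anti-PD-1, and 19.3 CPM in asGM1-positive and 4.65 CPM in asGM1-negative cells under isotype. The list summed to 915 to 1824 CPM in asGM1-positive and 899 to 1117 CPM in asGM1-negative cells under anti-PD-1, and to 1026 to 1588 CPM in asGM1-positive and 796 to 1378 CPM in asGM1-negative cells under isotype, with 84.2% of it from Ly6c2, which CD8+ memory T cells also express. Without Ly6c2 the sum was 194 to 334 CPM in asGM1-positive and 82.9 to 124 CPM in asGM1-negative cells under anti-PD-1, and 241 to 372 CPM in asGM1-positive and 78.8 to 92.1 CPM in asGM1-negative cells under isotype. No T cell identity gene of 10 passed between populations under either treatment, with 0 at an unadjusted p under 0.05.

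Between treatments in asGM1-positive cells, where 3.78% of all genes were higher and 3.04% lower under anti-PD-1, 1 of 17 macrophage markers was higher and 2 were lower, and 2 of 10 T cell identity genes and 2 of 6 NK cell markers were lower. There 1 of 8 markers of CD4 and regulatory T cells was higher, and 1 plasmacytoid and 1 conventional or mature dendritic cell marker were lower. In asGM1-negative cells, where 4.21% of genes were higher and 4.55% lower, 1 conventional or mature dendritic cell marker was higher and 1 lower, 1 of 6 NK cell markers was lower, and 1 of 8 markers of CD4 and regulatory T cells was higher. None of the 14 plasmacytoid dendritic cell markers passed there, with all 14 log2 fold changes negative and 4 at an unadjusted p under 0.05. Of all 18657 genes there, 9571 had a negative log2 fold change and 4289 an unadjusted p under 0.05. In asGM1-positive cells the NK cell markers summed to 121 to 250 CPM under anti-PD-1 and 361 to 488 CPM under isotype, with Ncr1 at most 0.673 CPM on average in any group. Of 4 neutrophil markers, 1 was lower under anti-PD-1 in asGM1-positive and 2 in asGM1-negative cells. The list summed to 0.504 to 2.72 CPM under anti-PD-1 and 3.61 to 8.10 CPM under isotype in asGM1-positive cells, and to 0.374 to 0.444 CPM under anti-PD-1 and 3.40 to 3.77 CPM under isotype in asGM1-negative cells. S100a8, which passed in neither, averaged 0.101 CPM under anti-PD-1 and 0.847 CPM under isotype in asGM1-positive cells, and 0.0506 CPM under anti-PD-1 and 0.716 CPM under isotype in asGM1-negative cells. The part of these markers in the receptors' differences was not tested.

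The genes around the receptors were read from fixed lists. Between populations the shares of all genes to set beside these counts were 0.654% lower and 0.949% higher under anti-PD-1, and 0.938% lower and 0.364% higher under isotype. With the block they were 2.13% lower and 2.85% higher under anti-PD-1, and 2.12% lower and 1.92% higher under isotype. Of 15 integrin, glycosylation and retention genes, 1 passed under each treatment, both lower in asGM1-positive cells. These were Itgae, the CD103 chain that binds E-cadherin, under anti-PD-1 (log2 fold change -3.16 ± 0.28, adjusted p = 0.00205) and Itgb7, an integrin chain of gut homing, under isotype (-1.63 ± 0.29, adjusted p = 0.0194). With the block 5 of the 15 were lower under anti-PD-1, and 3 were lower and 3 higher under isotype, with Itgb7 lower under anti-PD-1 as well (-0.82 ± 0.13, adjusted p = 0.00997) and Itgae under isotype (-1.09 ± 0.23, adjusted p = 0.0407). Cd69 passed in neither without the block (-0.37 ± 0.15 under anti-PD-1, adjusted p = 0.376, and 0.17 ± 0.15 under isotype, adjusted p = 0.733), and with it was lower under anti-PD-1 (-0.37 ± 0.05, adjusted p = 0.00846). Of 29 other chemoattractant receptors tested, 2 passed under anti-PD-1 (Gpr18 and Ccr9) and 3 under isotype (Gpr18, Ccr9 and Cxcr4), all lower in asGM1-positive cells, and Ccr9 is also a plasmacytoid dendritic cell marker. With the block 3 were lower under anti-PD-1, and 4 were lower and 1 higher under isotype. Between treatments, 1 of the 29 was higher and 2 lower under anti-PD-1 in asGM1-positive cells (3.78% of genes were higher, 3.04% lower). In asGM1-negative cells 4 were higher and 1 lower (4.21% of genes were higher, 4.55% lower). Averaged over populations 8 were higher and 6 lower, where 18.3% of all genes passed in either direction.

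Of 21 transcription factors of recirculation and effector state, 2 were lower in asGM1-positive cells under anti-PD-1 and 6 under isotype (with the block, 3 lower and 1 higher under anti-PD-1, and 7 lower and 1 higher under isotype). Tcf7, which encodes TCF1, a factor of stem-like T cells, was lower under both (-3.28 ± 0.49, adjusted p = 0.00913 under anti-PD-1, and -2.74 ± 0.48, adjusted p = 0.0172 under isotype). Id3, a repressor of E proteins, was lower as well (-2.79 ± 0.38, adjusted p = 0.00610 under anti-PD-1, and -2.27 ± 0.34, adjusted p = 0.00880 under isotype). Klf2 passed in neither without the block (-0.52 ± 0.38, adjusted p = 0.735 under anti-PD-1, and -0.97 ± 0.38, adjusted p = 0.308 under isotype). With the block it was lower under isotype (-0.97 ± 0.14, adjusted p = 0.00928) and did not pass under anti-PD-1 (-0.56 ± 0.13, adjusted p = 0.0559). Its libraries measured 5.68, 17.0 and 15.7 CPM in anti-PD-1 asGM1-positive, against 9.55, 22.9 and 22.4 CPM in anti-PD-1 asGM1-negative cells, and 7.02, 8.15 and 8.64 CPM in isotype asGM1-positive, against 16.7, 13.5 and 16.4 CPM in isotype asGM1-negative cells. The asGM1-positive library was the lower in each of these pairs.

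Under anti-PD-1 the same list held 12 genes past the threshold in asGM1-positive cells (9 higher, 3 lower), where 3.78% of all genes were higher and 3.04% lower, and 7 in asGM1-negative cells (5 higher, 2 lower), where 4.21% were higher and 4.55% lower. Lef1, a partner of TCF1, rose by 2.55 ± 0.19 on the log2 scale in asGM1-positive cells (adjusted p = 2.53e-05), and by 1.72 ± 0.18 in asGM1-negative cells (adjusted p = 0.000432). Satb1, a chromatin organiser, rose by 1.67 ± 0.11 in asGM1-positive (adjusted p = 1.54e-05) and 1.19 ± 0.11 in asGM1-negative cells (adjusted p = 0.000196). Zeb2, a factor of effector T cells, rose by 1.28 ± 0.23 in asGM1-positive (adjusted p = 0.00639) and 0.99 ± 0.23 in asGM1-negative cells (adjusted p = 0.0200). Zfp683, which encodes HOBIT of tissue residency, fell by 4.39 in asGM1-positive and fell by 3.23 in asGM1-negative cells, with an adjusted p of 1.95e-05 in asGM1-positive and 0.000194 in asGM1-negative cells. Id3 also passed as lower in both. It averaged 0.203 CPM under anti-PD-1 and 1.67 CPM under isotype in asGM1-positive cells. In asGM1-negative cells it averaged 1.41 CPM under anti-PD-1 and 8.05 CPM under isotype. Itgae, of the integrin, glycosylation and retention genes, fell by 3.97 in asGM1-positive and fell by 1.90 in asGM1-negative cells, with an adjusted p of 2.53e-05 in asGM1-positive and 0.00150 in asGM1-negative cells. Of those 15 genes, 2 were higher and 2 lower under anti-PD-1 in each population. Itga4 was among the higher in both. It averaged 73.5 CPM under anti-PD-1 and 21.3 CPM under isotype in asGM1-positive cells, and 48.1 CPM under anti-PD-1 and 23.4 CPM under isotype in asGM1-negative cells. Klf2 passed in neither (0.69 ± 0.38 in asGM1-positive, adjusted p = 0.340, and 0.24 ± 0.38 in asGM1-negative cells, adjusted p = 0.776).

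**Figure D4:**
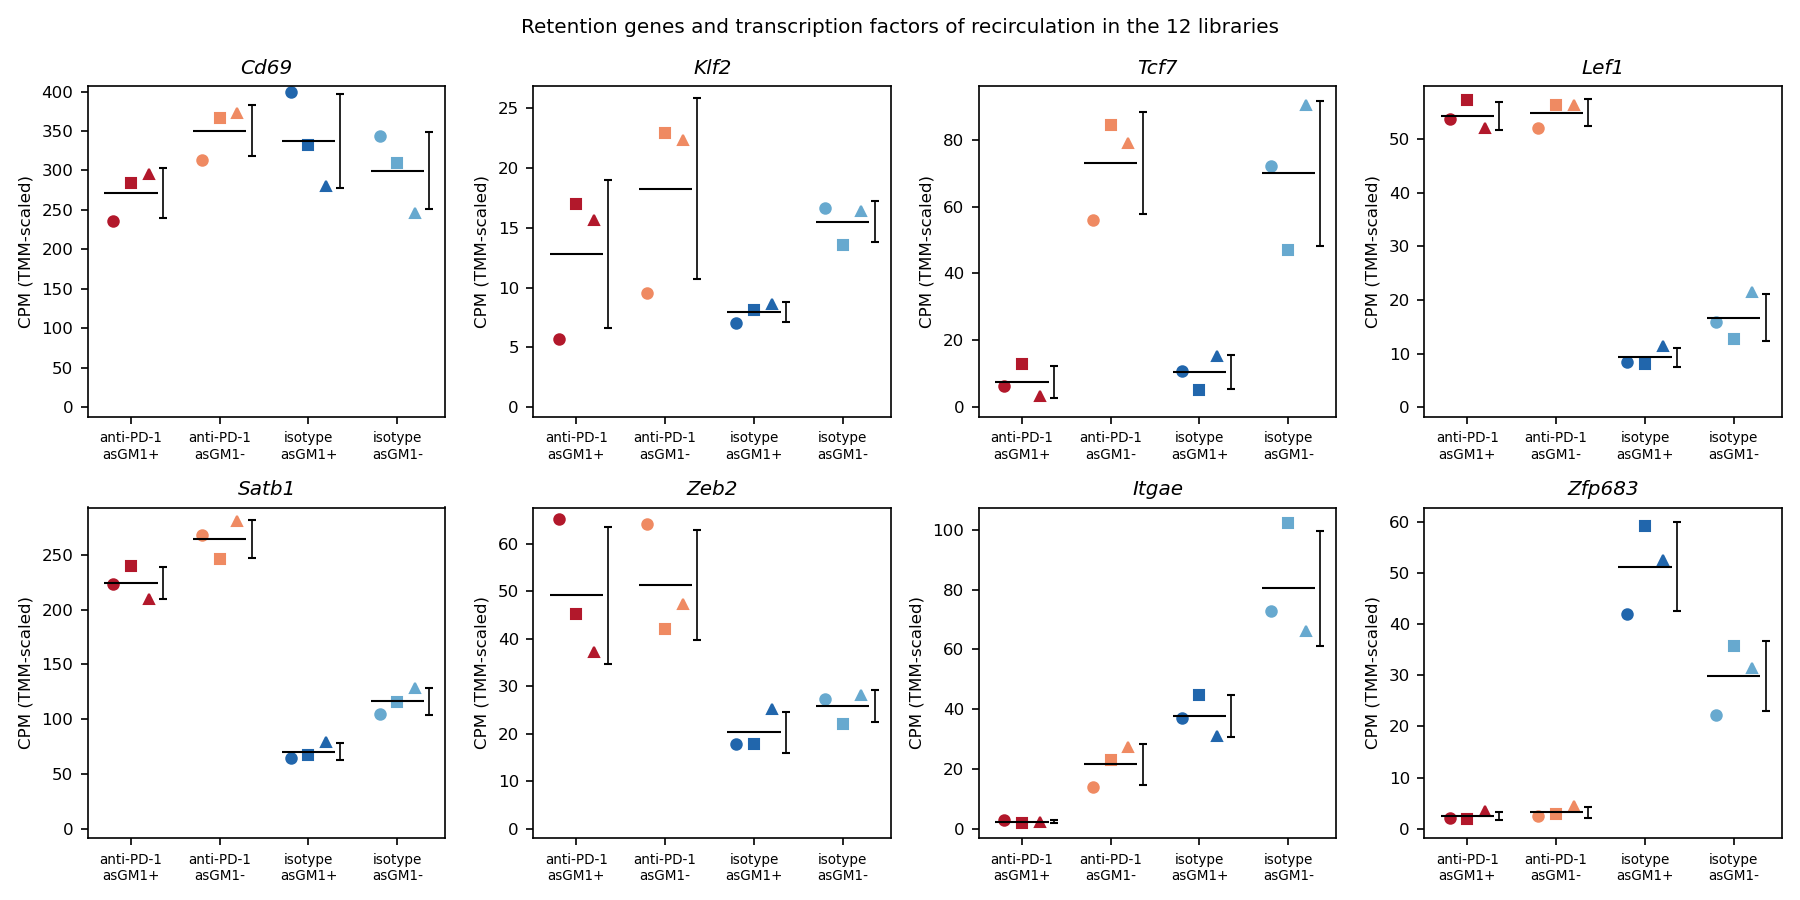
CPM of 8 retention genes and transcription factors in the 3 libraries of each group, drawn as for the receptors. Tcf7 stood lower in the asGM1-positive group of each treatment, and Zfp683 and Itgae stood lower in the anti-PD-1 group of each population while Lef1, Satb1 and Zeb2 stood higher.

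Of 8 receptor ligand genes tested, none passed between populations under anti-PD-1 and 2 were higher in asGM1-positive cells under isotype, Ccl7 (a CCR2 ligand; 5.99 CPM in asGM1-positive and 0.851 CPM in asGM1-negative cells, log2 fold change 2.81 ± 0.46, adjusted p = 0.0131) and Cxcl9 (a CXCR3 ligand; 5.72 CPM in asGM1-positive and 1.59 CPM in asGM1-negative cells, 1.85 ± 0.31, adjusted p = 0.0142). With the block 2 were higher under anti-PD-1 and 4 under isotype. With anti-PD-1, Ccl7 fell by 2.15 on the log2 scale in asGM1-positive cells (adjusted p = 0.0143), and Cxcl10 fell by 1.92 (adjusted p = 0.0175). Of 11 sphingosine-1-phosphate metabolism genes, none passed between populations under either treatment, with 0 under anti-PD-1 and 1 under isotype at an unadjusted p under 0.05. Of all 18657 genes, 2127 reached that unadjusted p between populations under anti-PD-1 and 2338 under isotype. Of 4 enzyme genes of the oxysterols that GPR183 senses, none passed between populations under either treatment. At an unadjusted p under 0.05 there were 3 in each. With the block Ch25h was higher in asGM1-positive cells under isotype (3.02 ± 0.61, adjusted p = 0.0346). Cyp7b1 went the other way and did not pass with the block (adjusted p = 0.0966 under isotype, 0.224 under anti-PD-1). Its 3 asGM1-positive libraries summed to 0 counts under each treatment, against 25 counts in asGM1-negative cells under anti-PD-1 and 124 under isotype. Averaged over treatments, without the block, Ch25h passed as higher and Cyp7b1 as lower. There 3.63% of all genes passed in either direction. Of 24 signalling and desensitisation genes, 1 passed between populations under anti-PD-1 and none under isotype (6 at an unadjusted p under 0.05). This was Gna13, a G protein subunit, lower in asGM1-positive cells (-0.49 ± 0.11, adjusted p = 0.0486). With the block 1 was lower under anti-PD-1, and 1 was lower and 2 higher under isotype. Between treatments, 2 of the 24 were higher and 1 lower under anti-PD-1 in asGM1-positive cells (3.78% of all genes were higher, 3.04% lower). In asGM1-negative cells 4 of the 24 were higher (4.21% of all genes). Rgs16, a regulator that shortens G protein signals, rose in asGM1-positive cells (1.02 ± 0.09, adjusted p = 8.79e-05) and in asGM1-negative cells (0.99 ± 0.09, adjusted p = 0.000212). Dock2, which activates Rac in migrating lymphocytes, rose in asGM1-positive cells (0.53 ± 0.13, adjusted p = 0.0288) and in asGM1-negative cells (0.53 ± 0.13, adjusted p = 0.0249). Of the same family as Rgs16, Rgs19 fell in asGM1-positive cells (-0.46 ± 0.12, adjusted p = 0.0360), and Rgs1 (0.89 ± 0.13, adjusted p = 0.00235) and Rgs2 (1.0 ± 0.23, adjusted p = 0.0189) rose in asGM1-negative cells.

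Genes with patterns most like a receptor were ranked by the root mean square difference of centred log2 CPM over the 12 libraries, among 8856 genes. For S1pr1 the nearest were Slamf6 (0.780), Itgb7 (0.788) and Ccr7 itself (0.791), where S1pr1's own spread was 1.60. For Ccr7 they were Kit (0.406), Bach2 (0.456) and Sh3bp5 (0.457), of a spread of 1.08. Gpr183 had N4bp2l1 (0.144), Btg1 (0.145) and Btg2 (0.158), of a spread of 0.454. Cx3cr1 had Ptprs (0.133), Ube4a (0.261) and Kdm2b (0.263), of a spread of 0.605, and Ccr2 had Ppp1r15a (0.235), Gpr132 (0.238) and Nfkbid (0.243), of a spread of 0.559. Cxcr5 had Egr2 (0.554), Lair1 (0.623) and Hmgn1 (0.639), of 0.950, and S1pr5 had Trex1 (0.855), Lad1 (1.05) and Bace2 (1.05), of 1.55, both from few counts. Cxcr3 varied too little between groups to be ranked.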

How the data were processed

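RNA was sequenced from 12 libraries of CD8+ T cells, 3 in each of 4 groups. Per the labels' protocols, RNA was isolated with TRIzol, and library preparation used SMARTer (ultra low input) and TruSeq mRNA reagents. The submitters' processing notes name, without versions, the tools HISAT2 and StringTie and the build mm39. The authors deposited a table of whole-number counts per gene, and its annotation, strand use and treatment of multi-mapped reads are not given in the sources used here.

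These counts were tested with edgeR 4.0.16 (limma 3.58.1, R 4.3.3) in 1 quasi-likelihood fit of all 12 libraries with 4 group means; low genes were removed first by filterByExpr with the groups, and TMM factors lay between 0.970 and 1.04. The SE of a log2 fold change is its size divided by the root of F. The threshold was an adjusted p of 0.05 (Benjamini-Hochberg, 18657 genes). Dispersions were moderated robustly, a setting chosen after the data were seen because the earlier processing of this series had used it. Alternatives were DESeq2 1.42.0, limma voom, other scalings and filters, libraries left out, and a replicate block. Same-numbered libraries of a treatment correlated at 0.121 to 0.298 in their deviations from group means (6 pairs), and across treatments at -0.118 to 0.0497, so the block pairs populations and not treatments. The receptors and gene lists were chosen with earlier results of these data known. All 8 receptors were named in every comparison, and of each related list up to 4 members that passed, by smallest p, plus a few fixed genes, 1 of which is not reported here and was left out of its list. The fit was tested on simulated data first. Annotation of overlaps and promoters came from GRCm38, which differs from mm39. In that annotation S1pr5, Cxcr5 and Cx3cr1 also overlap other genes, whose reads cannot be told apart without strand.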

Additional observations from a re-analysis of the deposited data

How the results depend on the processing

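Of the receptors called in a comparison, S1pr1 and Ccr7 between populations under isotype, and S1pr1 under anti-PD-1 in asGM1-positive cells, passed in all 22 alternatives. No call changed sign. The replicate block gave 4 receptors under isotype, 4 under anti-PD-1 and 5 on average, and changed no other receptor call between populations. DESeq2 gave 4 receptors between populations under isotype, 3 under anti-PD-1, 4 for treatment in asGM1-negative cells, 4 in asGM1-positive cells and 1 for the difference of responses. Between populations under anti-PD-1, using only the compared libraries gave 3, and limma voom, library totals without TMM, no filter and a stricter filter gave 2 each. Without a filter, 1 receptor passed for treatment in asGM1-negative cells. Leaving out libraries always gave 2 receptors between populations under isotype, 0 to 2 under anti-PD-1 and 2 to 3 on average, 0 to 3 for treatment in asGM1-negative cells, 1 to 3 in asGM1-positive cells, 3 to 5 on average and always 0 for the difference of responses. For treatment the replicate numbers pair no libraries. There the block also passed Ccr2 in asGM1-positive cells (adjusted p = 0.00544) and Cxcr3 in asGM1-negative cells (0.0285). A fit without robust moderation, added after the data were seen, gave the same number of receptors in each comparison. The cause of these changes was not tested. S1pr5 had at most 39 counts in a library, and the stricter filter removed S1pr5 and Cxcr5.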
